A study of Mus musculus with 10 samples.

Results

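The cells described here were 703 vestibular cells of aged mice, chosen by 3 transcripts used here to look for inner ear fibrocytes and by the absence of a cartilage matrix transcript. A cell was taken when it had at least 1 UMI (unique molecular identifier, 1 counted molecule) in 2 or more of Coch, Cacna1e and Hhatl, none of Ucma, and UMIs in fewer than 3 of the 6 hair cell markers Myo6, Myo7a, Pou4f3, Tmc1, Kncn and Gfi1. They were 703 of the 10424 vestibular cells that passed quality limits (at least 200 genes, at least 1000 UMIs and under 25% mitochondrial UMIs) and of 17696 such cells in both organs. The working name of the population was vestibular cochlin fibrocytes. The data went against this name in several of the measures below, so the cells are called Ucma-negative rule-positive cells, or the chosen cells.

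Cochlin, the product of Coch, is a secreted matrix protein of the inner ear, and mutations in COCH cause a progressive loss of hearing and balance. It is made by fibrocytes, the mesenchymal cells that fill the connective tissue beneath and around the sensory and secretory epithelia and that are thought to return potassium towards the endolymph. Fibrocytes are also known for otospiralin, encoded by Otos. Ptgds encodes a prostaglandin D synthase that is secreted in quantity by mesenchymal barrier cells, Cacna1e the pore subunit of an R-type calcium channel, and Hhatl a relative of the acyltransferase that adds palmitate to hedgehog. Ucma encodes a secreted protein of cartilage matrix.

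The study profiled dissociated cochlear and vestibular organs of wild-type CBA/J mice aged 22 months by droplet-based single-cell RNA sequencing as part of work on the ageing of hair cells. All mice were of 1 strain and age, none received an agent, and each library pooled 7 to 8 mice, so that single animals could not be told apart. Of 10 libraries, 5 from each organ, replicate 2 of each organ repeated replicate 1: the 2 vestibular libraries shared 1633 cell barcodes and the 2 cochlear libraries 1313, and counts over the shared barcodes differed by a chi-square per gene of 0.122 and 0.127, against 55.5 and 35.6 between replicates 1 and 4 of each organ. Replicates 1, 3, 4 and 5 were therefore used, which left 4 libraries per organ. Other pairs shared at most 41 barcodes, and the barcodes of 5 chosen cells occurred in another library that was used.

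The chosen cells came unequally from the libraries. Replicates 1, 3, 4 and 5 gave 47, 429, 129 and 98 cells, with 147831, 1515570, 380867 and 349479 UMIs in all. They made up 5.42% (exact 95% interval 4.01 to 7.14), 7.89% (7.19 to 8.64), 5.27% (4.42 to 6.23) and 5.86% (4.79 to 7.10) of the kept cells, so that replicate 3 had the highest share and the other replicates overlapped within their intervals, which cover counting error only. The median chosen cell had 2691, 1872, 2116 and 2043 UMIs. Levels below are CPM, the UMIs of a gene per 1000000 UMIs summed over the cells of a class in 1 library, and are given as the mean ± SD of 4 libraries (n = 4).

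Coch, Cacna1e and Hhatl chose the cells, and their levels are a description. Most chosen cells passed on the first and last of them: 508 had UMIs of Coch and Hhatl only, 126 of Coch and Cacna1e only, 6 of Hhatl and Cacna1e only, and 63 of all 3 genes. The median cell held 3 Coch UMIs. A single Coch UMI was found in 201 cells (28.6%), 2 to 4 in 194 cells and 5 or more in 302 cells (43.0%), with a highest count of 124. The population thus ran from cells at the lowest countable level of Coch to cells rich in it.

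Levels of Coch just inside and just outside the rule are given as a description, since Coch is 1 of the genes counted and rises with their number by construction. Among vestibular cells outside the hair cells and without Ucma, those just outside the rule, with 1 of the 3 genes (1744 cells), had 1063 ± 279 CPM of Coch, and those just inside it, with 2 genes (640 cells), had 2468 ± 516 CPM. Those with all 3 genes (63 cells) had 12877 ± 5771 CPM. Cells outside the hair cells with a Ucma UMI had more of the same transcript at each number of rule genes. With 1 gene they had 6642 ± 1090 CPM (1636 cells, outside the rule with or without Ucma). Those that the absence of Ucma removed had 13940.2 ± 1710 CPM with 2 genes (1887 cells) and 24665 ± 1622 CPM with 3 (919 cells).

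**Figure D1:**
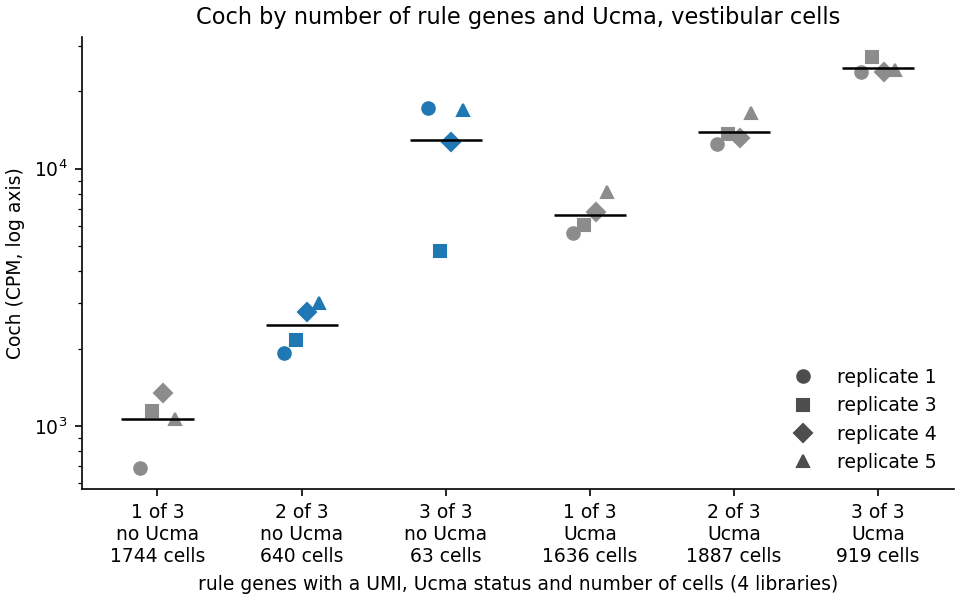
Coch level (CPM, log axis) in vestibular cells by the number of rule genes with a UMI, for cells with and without a Ucma UMI, hair cells left out. Symbols mark the replicates and lines the mean of the 4 libraries. At each number of rule genes the cells without Ucma, which include the chosen cells at 2 and 3 genes, lay below those with Ucma: 2468 against 13940.2 CPM at 2 genes and 12877 against 24665 CPM at 3.

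Ucma decided most of the membership in the vestibule. Of 3509 vestibular cells outside the hair cells with 2 or more rule genes, 2806 (80.0%) held a Ucma UMI and were left out, against 46 of 379 (12.1%) in the cochlea. The cells with at least 2 Ucma UMIs (3516 cells, called Ucma cells below) had the transcript at 3329 CPM. A Ucma UMI was also found in cells that should lack it: 33.4% ± 9.75 of the 250 macrophage-like cells of the vestibule, those with UMIs of at least 3 of C1qa, C1qb, C1qc, Csf1r, Cx3cr1 and Aif1, held a Ucma UMI, and 25.4% ± 9.18 after each cell was thinned to 1000 UMIs. The part of free Ucma RNA in which cells the rule kept was not tested.

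The chosen cells were checked against the 5 fibrocyte markers, of which the rule had used 3. Coch (ENSMUSG00000020953, chr12:51593341-51605771 in mm10) stood at 3233, 2303, 3665 and 3980 CPM in replicates 1, 3, 4 and 5, a mean of 3295 ± 729. All 4 values lay below those of the Ucma cells, 16579 ± 1285 CPM, and the mean lay below the 4720 CPM of all other kept vestibular cells (9721 cells). The Ucma cells were part of these other kept cells and held 148568 of their 170991 Coch UMIs. The level of the other kept cells was thus mainly that of the Ucma cells, and says little about the rest. Macrophage-like cells, which should not make cochlin, had 2416 ± 2457 CPM, with 6083 CPM in the 11 such cells of replicate 1 and 925 to 1512 CPM in the others. Hair cells had 294 CPM.

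Otos (ENSMUSG00000044055, chr1:92644218-92648841), which the rule did not use, stood at 365, 992, 659 and 2043 CPM, a mean of 1015 ± 732. It was highest in replicate 5 and lowest in replicate 1. The mean was below that of all other kept cells (1569 CPM) and of the Ucma cells (5184 ± 1190 CPM), and above that of the macrophage-like cells (553 ± 233 CPM). The Ucma cells were part of the other kept cells and held 50043 of their 61126 Otos UMIs. The level of all other kept cells thus came mainly from the Ucma cells and says little about the rest. An Otos UMI was found in 41.7% ± 17.3 of chosen cells and in 48.2% ± 9.99 of macrophage-like cells. The median chosen cell had 1963 UMIs and the median macrophage-like cell 2606.5. At 1000 UMIs per cell the shares were 29.9% ± 10.98 and 31.2% ± 11.1, with no cell left out, a mean difference of -1.32 percentage points (SD 19.5, n = 4). The chosen cells had the higher share in 3 of 4 libraries, and without replicate 1, where 5 of only 11 macrophage-like cells held an Otos UMI, the difference was 8.43 points. The 2 shares did not differ beyond the spread of all 4 libraries, and Ucma cells had 48.3% ± 7.67 at the same depth.

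Ptgds (ENSMUSG00000015090, chr2:25466709-25470046), also unused by the rule, stood at 16647, 29590.2, 42322 and 40641 CPM, a mean of 32300.0 ± 11865. The Ucma cells had 135032 ± 5672 CPM and the macrophage-like cells 22469 ± 15590.3 CPM. A Ptgds UMI was present in 98.1% of chosen cells and 95.2% of macrophage-like cells, and in 89.9% ± 6.81 and 85.6% ± 6.31 at 1000 UMIs per cell. The share of the chosen cells exceeded that of the macrophage-like cells in 3 of 4 libraries, by 4.35 percentage points (SD 4.44).

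The 2 remaining rule genes behaved differently. Hhatl (ENSMUSG00000032523, chr9:121784016-121792507) stood at 764, 471, 488 and 438 CPM, a mean of 540.4 ± 151, near the 630.2 CPM of the Ucma cells and above the 230 CPM of all other kept cells. It was not particular to mesenchymal cells: among marker-defined cells pooled over the libraries it reached 671 CPM in vestibular melanocytes and 332 CPM in pendrin epithelial cells, against 324 CPM in fibroblasts, and in the cochlea 1085 CPM in melanocytes against 28.5 CPM in fibroblasts. Cacna1e (ENSMUSG00000004110, chr1:154390731-154884501) stood at 87.9, 89.7, 228 and 172 CPM, a mean of 144 ± 68.3, against 310 CPM in the Ucma cells and 87.8 CPM in all other kept cells. Hair cell markers were low where the rule limited them. The most abundant of them, Myo6, had 211 ± 27.3 CPM in the chosen cells, close to the 213 CPM of the Ucma cells, and Gfi1 6.20 ± 4.71 CPM against 374 CPM in hair cells.

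**Figure D2:**
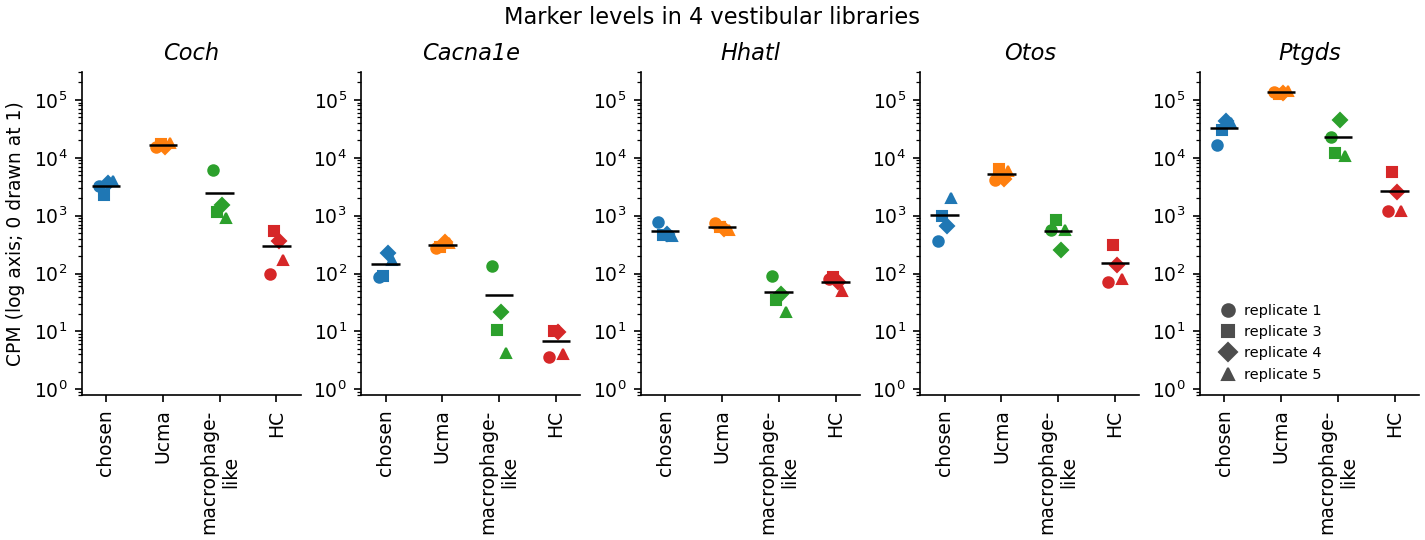
Levels of Coch, Cacna1e, Hhatl, Otos and Ptgds (CPM, log axis) in the chosen cells, Ucma cells, macrophage-like cells and hair cells (HC) of the vestibule. Symbols mark the 4 replicates and lines their mean. The chosen cells lay below the Ucma cells for Coch (3295 against 16579 CPM), Otos (1015 against 5184 CPM) and Ptgds (32300.0 against 135032 CPM), and near them for Hhatl (540.4 against 630.2 CPM).

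Markers of other cell types were present in many of the chosen cells. UMIs of at least 3 markers of 1 other type were held by 88 cells for supporting cells (12.5%), 62 for fibroblasts (8.82%), 51 for erythroid cells (7.25%), 30 for melanocytes (4.27%), 24 for pendrin epithelial cells (3.41%), 20 for macrophages, 18 for the B lineage, 14 each for glia and granulocytes, 8 for T cells, 5 for dark or marginal cells, 4 for neurons, 2 for endothelial cells and 0 for pericytes. All 6 supporting cell markers were detected, summed to 1972 CPM on average (1188 to 3396 over the libraries), with Otog, a protein of the acellular membranes over the sensory epithelia, the most abundant. All 6 melanocyte markers were detected, at 2499 CPM (77.3 to 5452), led by Dct, an enzyme of melanin synthesis. The highest value came from replicate 1, where 1 of 47 cells held at least 3 of these markers. Replicates 3, 4 and 5 had 2656, 1809 and 77.3 CPM. All 5 erythroid markers were detected, at 36378 CPM (156 to 62392), led by Hbb-bs, and replicate 1 held the lowest value. Hbb-bs alone averaged 24819 CPM in the chosen cells, 34342 CPM in all other kept cells and 41974 CPM in macrophage-like cells, which should lack it, so its level was not read as a mark of erythroid cells among the chosen ones.

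The granulocyte list summed to 4725 CPM on average (920 to 10009 over the libraries), above the supporting cell and melanocyte lists. The cartilage, bone and neuron lists summed to less. The cartilage list reached 242 CPM through Sox9, with Ucma, Matn1 and Matn3 at 0, the first by the rule, and the bone list 10.3 CPM with Bglap, Sp7 and Mepe at 0. The neuron list reached 50.2 CPM, with Tubb3 at 0. The granulocyte, erythroid and neuron lists summed to 16343, 51395 and 524 CPM in all other kept vestibular cells, above the chosen cells. The supporting cell, melanocyte and bone lists summed to 1437, 230 and 6.96 CPM there, below the chosen cells. The cartilage list, which includes Ucma, summed to 1059 CPM there. The counts of cells with at least 3 markers were not compared with other cells. The part of cells of other types in the levels below was not tested.

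Each chosen cell was then compared with the transcriptome-wide profiles of marker-defined vestibular cells, leaving out the rule genes, Ucma and the hair cell markers, and was counted under the profile that gave its counts the highest likelihood. Of reference cells held out of the profiles, 77.7% (2319 of 2983) returned to their own type. Profiles of barrier fibroblasts and neurons had been left out, since 7.50% of 40 and 0 of 18 held-out cells returned to them, and these cells are not in that share. Fibroblast and Ucma profiles were often exchanged, with 268 of 1525 held-out Ucma cells closest to fibroblasts and 56 of 180 fibroblasts closest to Ucma cells. These 2 profiles are therefore joined below.

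No single profile held most of the chosen cells. Fibroblast profiles were closest for 128 cells (18.2%), supporting cell profiles for 124 (17.6%) and Ucma profiles for 120 (17.1%). Pendrin epithelial profiles followed with 73 cells (10.4%), glia with 55 (7.82%), melanocytes with 43 (6.12%), macrophages with 29 (4.13%), hair cells with 27 (3.84%), the B lineage with 20 (2.84%), granulocytes and T cells with 12 each and dark or marginal cells with 7. The mean of all kept cells was the closest for 53 cells (7.54%).

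The mix varied among libraries. Supporting cell profiles took 42.6% of the cells of replicate 1, 14.5% of replicate 3, 26.4% of replicate 4 and 8.16% of replicate 5. Fibroblast profiles took 21.3%, 11.4%, 34.9% and 24.5%, and Ucma profiles 6.38%, 18.6%, 11.6% and 22.4%. Replicate 1 was thus the richest in supporting cell profiles and the poorest in Ucma profiles. It was also the library used from each organ whose file header names Cell Ranger 5.0.1, against 6.1.2 for replicates 3, 4 and 5, and the part of the version in its values was not tested.

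**Figure D3:**
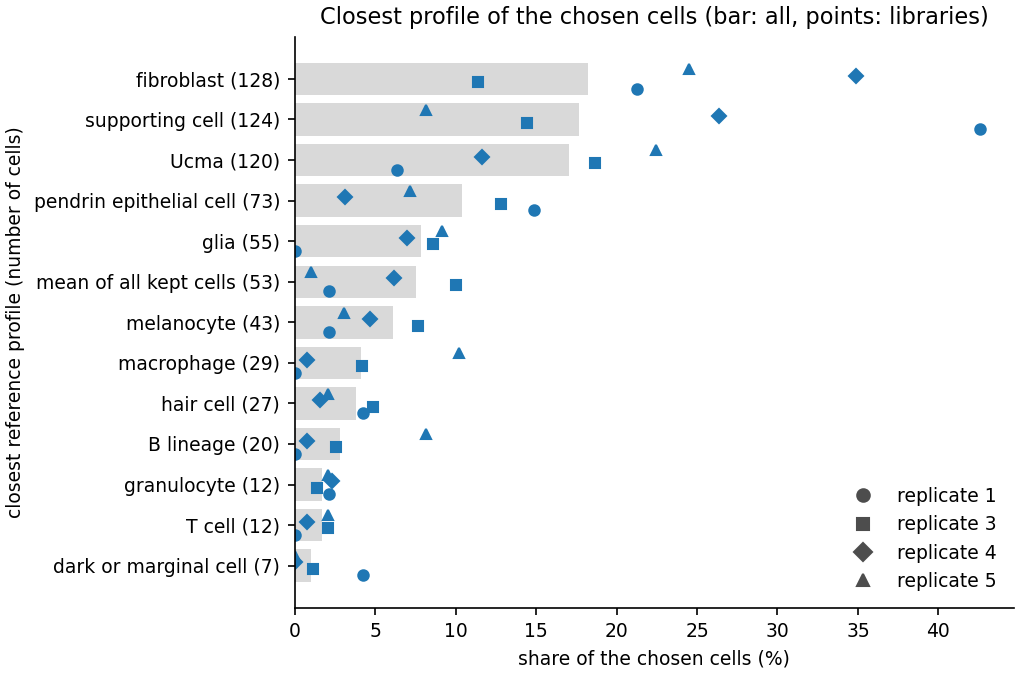
Closest reference profile of the chosen cells, as the percent of the chosen cells of each vestibular library (points) and of all 703 cells (bars). Fibroblast (18.2%), supporting cell (17.6%) and Ucma (17.1%) profiles led, and the supporting cell share ran from 8.16% to 42.6% over the libraries.

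The fibroblast and Ucma profiles held 248 of the 703 chosen cells (35.3%), here called fibroblast/Ucma-profile cells, and the other profiles 455 (64.7%). The profiles did not use the 3 rule genes, but these genes chose the cells, so their levels by profile are a description and no check of the division. Coch stood at 11637, 7476, 9364 and 9768 CPM in the fibroblast/Ucma-profile cells of replicates 1, 3, 4 and 5 (mean 9561 ± 1706) and at 511, 902, 876 and 1338 CPM in the other chosen cells (mean 907 ± 339). Cacna1e stood at 364 ± 135 against 55.4 ± 23.9 CPM. Hhatl stood at 668 ± 132 against 494 ± 184 CPM. The median cell held 15 Coch UMIs in the first group and 2 in the second, where 184 cells (40.4%) had a single one.

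Otos and Ptgds, which entered the profiles, followed Coch. Otos stood at 2856 ± 2101 CPM in the fibroblast/Ucma-profile cells and 299 ± 137 CPM in the others, and Ptgds at 92746 ± 36662 against 8332 ± 1590 CPM. Apod, a secreted lipid carrier, stood at 13446 ± 3099 against 1043 ± 498 CPM. Dcn, the matrix proteoglycan decorin, stood at 2457 ± 1187 against 175 ± 86.3 CPM. Their separation is in part what the profiles used.

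The other chosen cells held transcripts of several specialised types, among them markers that defined the reference cells and entered the profiles, so that their excess is in part built in. Otog stood at 1285 ± 886 CPM in them and 19.2 ± 26.1 CPM in the fibroblast/Ucma-profile cells, and Dct at 2972 ± 2620 against 66.1 ± 109 CPM. The libraries did not overlap for Otog and overlapped for Dct. In the other chosen cells Dct stood at 6413, 2956, 2460 and 58.3 CPM in replicates 1, 3, 4 and 5. Its highest value came from replicate 1, which had 1 cell closest to melanocytes. In the fibroblast/Ucma-profile cells Dct stood at 0, 229, 7.99 and 27.4 CPM. Cells closest to melanocytes were led, by their ratio to cells outside the chosen ones, by Syt4, at 3097, 1350 and 27.5 CPM in replicates 3, 4 and 5, and Tyr, an enzyme of melanin synthesis, at 918, 831 and 0 CPM, so that replicate 5 lacked both or nearly so. Cells closest to glia were led by Vcan, which encodes the matrix proteoglycan versican (2878, 1783 and 3088 CPM), and Ntn1, which encodes the guidance cue netrin-1 (993, 462 and 692 CPM), in all 3 of these libraries. The 20 cells closest to the B lineage were led by immunoglobulin transcripts through replicate 3, where Igkc, itself a reference marker, stood at 118444 CPM and Jchain, the joining chain of secreted antibodies, at 13257 CPM, against 1032 and 0 CPM in replicate 5.

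**Figure D4:**
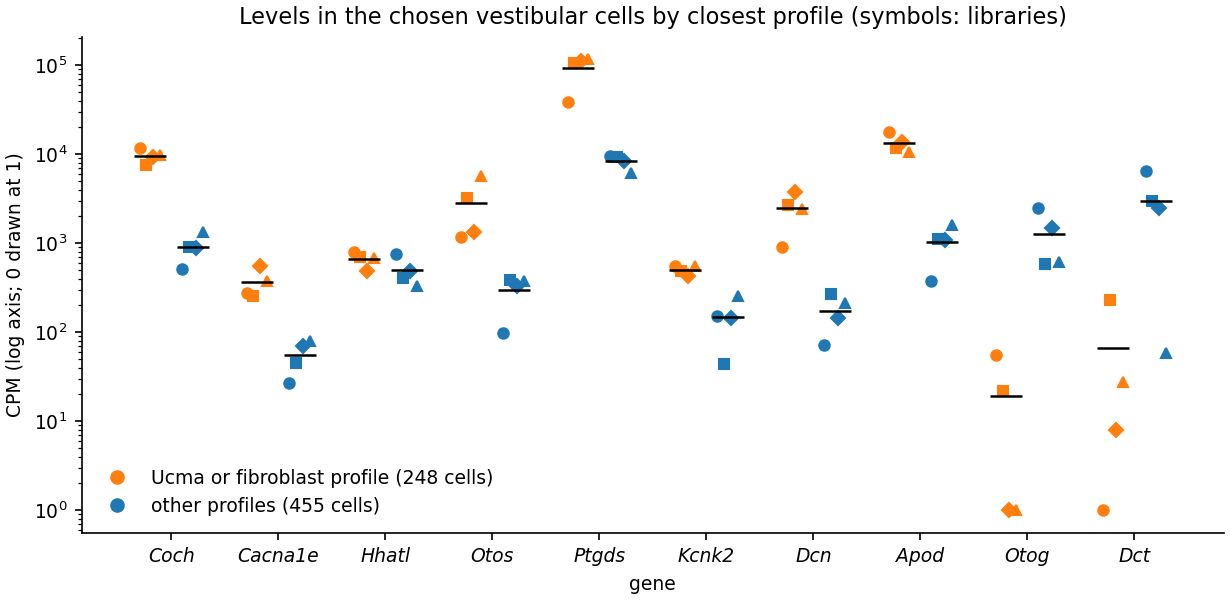
Levels (CPM, log axis) of 10 genes in the 248 chosen cells closest to a fibroblast or Ucma profile and in the 455 closest to another profile. Symbols mark the 4 vestibular libraries, lines their mean, and values of 0 are drawn at the foot of the axis. Coch, a rule gene, stood at 9561 against 907 CPM, while Otog (19.2 against 1285 CPM) and Dct (66.1 against 2972 CPM) lay the other way.

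Within the fibroblast/Ucma-profile cells, some transcripts stood apart from the Ucma cells. Among genes of at least 100 CPM that were higher in all 4 libraries, Emilin2, a glycoprotein of elastic fibres, stood at 387, 279, 208 and 246 CPM (mean 280.0 ± 77.0) against 11.9 CPM in Ucma cells. Cavin2, a protein of caveolae, stood at 522 ± 240 against 48.7 CPM. Kcnk2, which encodes the mechanosensitive potassium channel TREK-1, stood at 553, 492, 423 and 548 CPM (mean 504 ± 60.3) against 68.7 ± 8.54 CPM, a ratio of 7.34. Ly6a and Cldn11 were higher on average mainly through replicate 1 (1189 and 1575 CPM, against at most 173 and 164 CPM in the others).

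Otor, a secreted protein of the inner ear related to Mia, lay the other way, at 224 ± 162 against 1151 ± 58.5 CPM in Ucma cells, as did Spink8 (46.5 against 352 CPM) and Mia (44.9 against 992 CPM). Markers of blood and epithelial cells were also lower than in the Ucma cells, among them Epcam (37.7 against 437 ± 199 CPM), Otog (19.2 against 138 ± 119 CPM), Cldn9 (13.1 against 104 ± 40.9 CPM) and, with SDs above the mean over the Ucma cells of the 4 libraries, S100a8 (21.6 against 1156 ± 1178 CPM) and Igkc (7.70 against 789 ± 1494 CPM). The part of such cells in the levels of the Ucma cells was not tested. Summed over the lists, matrix glycoproteins and proteoglycans reached 7413 ± 1734 CPM against 2863 ± 186 in Ucma cells, insulin-like growth factors and their binding proteins 4366 ± 1151 against 1588 ± 220.0 CPM, and mesenchymal transcription factors 4093 ± 1289 against 2126 ± 263 CPM. The sum of secreted proteins, 137324 ± 32721 against 188333 ± 5004 CPM, was lower through Ptgds, Coch and Otos, and the other 21 genes of the list summed to 32161 ± 5918 against 31538 ± 1509 CPM. These are descriptions, since Ucma and the profiles set both groups.

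Among the most abundant transcripts of the chosen cells, outside the ribosomal and mitochondrial genes, were Malat1 (53405 ± 12946 CPM), Ptgds, Hbb-bs (24819 ± 20186 CPM), Gm42418, Hba-a1, Apoe (5230.3 ± 995 CPM), Apod (4419 ± 794 CPM), Fth1 and Coch. Hbb-bs, the beta globin of red cells, stood at 40.6 CPM in replicate 1 and at 16707 to 42214 CPM in the others, and its mean was below that of all other kept cells (34342 CPM). Of 6984 genes with a mean of at least 20 CPM, 1586 (22.7%) were higher than in all other kept cells in all 4 libraries, and the median ratio over all 6984 genes was 1.10.

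The genes with the largest ratios to all other kept cells differed in the profiles that held them. All of them entered the profiles, and Lum and Slc26a4 were also markers that defined reference cells. Their division by profile is thus in part built in. Gsta1, a glutathione transferase, led with a ratio of 17.6, at 169, 30.4, 10.5 and 5.72 CPM, and its mean of 53.9 CPM fell to 15.5 CPM without replicate 1. Fxyd2, a regulator of the sodium pump, stood at 33.8, 87.1, 394 and 117 CPM (ratio 9.30) and at 79.4 CPM on average without replicate 4, against 158 CPM with it. Kcnk2 stood at 250.3, 139, 236 and 346 CPM (ratio 5.06), and was the more even over the libraries. Lum, which encodes the proteoglycan lumican (ratio 3.99), was found almost only in fibroblast/Ucma-profile cells, at 471 against 7.73 CPM, and its mean over all chosen cells, 144 CPM, was 79.0 CPM without replicate 4. Slc26a4, which encodes the anion exchanger pendrin (ratio 3.68), lay at 1.55 CPM in fibroblast/Ucma-profile cells and 175 ± 102 CPM in the others. Vmo1 (ratio 4.33), a relative of an egg membrane protein, lay at 4.32 against 546 CPM, and its mean over all chosen cells was 404 CPM, or 137 CPM without replicate 1. The genes taken by the rule also included Bace2, Mme, Arhgap20, Syngr1, Scd1, Slc26a7, Cldn11 and Met, with ratios of 3.35 to 4.68. Of these, Slc26a7 averaged 121 CPM and 36.9 CPM without replicate 1, below the 50 CPM needed to be named, and Cldn11 139 and 54.8 CPM.

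The same rule in the cochlea found 333 of 7272 kept cells, 28, 231, 32 and 42 in replicates 1, 3, 4 and 5, or 4.90, 4.56, 4.604 and 4.49% of kept cells. Only 2 of them held all 3 rule genes. The comparison asks how far cells taken by the same limits carried the same transcripts in the organs of balance and of hearing. UMIs were summed per library and tested with edgeR's quasi-likelihood test, 4 against 4 libraries. Of 5484 genes tested, 647 (11.8%) passed an adjusted p of 0.05, 284 of them higher in the vestibule (5.18% of genes tested) and 363 higher in the cochlea (6.62%). Without the rule genes these were 282 and 362, of which 221 and 297 did not overlap between the organs, against 841 of all genes tested (15.3%). The balance of the directions turned in some other settings. Without replicate 3 of the vestibule 219 genes were higher in the vestibule and 207 in the cochlea, and with no filter on low counts 1065 and 685. As the cells of the 2 organs were mixed differently (supporting cell profiles 17.6% in the vestibule and 5.41% in the cochlea, for example), a different make-up and a different level within a cell type cannot be told apart in these sums.

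The 10 named genes higher in the vestibule had the largest change among calls without overlap and at or above the other kept cells. Otol1 (chr3:70007613-70028708), which encodes otolin, a scaffold of otoconia, stood at 622, 135, 286 and 160.2 CPM in the vestibule, and no UMI was found in 2405211 cochlear UMIs. Against a floor of 3 UMIs over the cochlear cells it was at least 154-fold higher (adjusted p = 5.21e-05, edgeR). Nox3, the NADPH oxidase needed for otoconia, stood at 149, 141, 34.1 and 120.2 CPM and was at least 97.5-fold higher (adjusted p = 0.000104, edgeR). Tecta, which encodes alpha-tectorin of the membranes over the sensory cells, stood at 47.4, 51.5, 47.3 and 37.2 CPM and was at least 38.9-fold higher (adjusted p = 5.21e-05, edgeR). All 3 genes were at 0 in each cochlear library.

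The remaining named genes of this direction were also low in the cochlea. Agr3, of the protein disulfide isomerase family, stood at 142, 165, 147 and 132 CPM in the vestibule and at 4.78, 2.84, 2.56 and 0 CPM in the cochlea (log2 fold change 5.74, SE 0.40, adjusted p = 2.34e-06, edgeR). Mia, a secreted protein of cartilage, stood at 3605, 1163, 1764 and 587 CPM against 19.1, 57.5, 17.9 and 12.6 CPM (log2 fold change 5.75, SE 0.59). Hhla1 was at least 41.2-fold higher. Gm266 was higher by a ratio of 140 (exact 95% counting interval 38.4 to 1163) and Itga4, an integrin subunit of blood-derived cells, by 50.7 (13.7 to 425), each with 2 cochlear UMIs. Bricd5 and Vcan had log2 fold changes of 5.80 and 5.65. Vestibular hair cells, which the rule left out, held some of these transcripts too. Tecta stood at 54.5 CPM in them, Agr3 at 162 CPM and Gm266 at 139 CPM, above the chosen cells (45.8, 146 and 123 CPM). Otol1 (255 CPM) and Hhla1 (38.3 CPM) lay below the chosen cells (301 and 64.9 CPM). Nox3, Bricd5, Mia, Vcan and Itga4 lay further below, at 1.26, 132, 72.5, 5.27 and 4.04 CPM. Not all were thus particular to the chosen cells.

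These genes entered the profiles, so that cells holding them were in part set apart by the counts given here. The vestibular genes were counted mainly outside the fibroblast/Ucma-profile cells, which held 593776 of the 2393747 UMIs of the chosen cells. Of 461 Otol1 UMIs, 2 were in the 248 fibroblast/Ucma-profile cells and 459 in the 455 others, or 1.55 ± 3.10 against 413 ± 295 CPM. The same held for Tecta (3 and 113 UMIs), Agr3 (2 and 371), Gm266 (3 and 276), Hhla1 (1 and 122), Itga4 (1 and 100), Nox3 (19 and 272) and, less fully, Vcan (52 and 439). Mia stood at 44.9 ± 41.5 CPM in vestibular and 50.1 ± 65.3 CPM in cochlear fibroblast/Ucma-profile cells, while the other chosen cells had 2419 ± 1722 against 20.4 ± 9.89 CPM. Bricd5 stood at 87.9 ± 25.003 against 3.37 ± 6.74 CPM in the fibroblast/Ucma-profile cells of the 2 organs and was the 1 of these 10 genes without overlap there. Of all 5484 genes tested, 3.15% lay higher in the vestibule without overlap in these cells and 3.77% in the cochlea. These values were not tested.

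The 10 genes higher in the cochlea showed another arrangement. Fxyd2 (chr9:45399669-45410278) stood at 2717, 2540, 5152 and 6923 CPM in the cochlea against the 33.8 to 394 CPM of the vestibule, and fell by 4.80 on the log2 scale from cochlea to vestibule (SE 0.67, adjusted p = 0.00038, edgeR). Kcnk2 (chr1:189207930-189402273) stood at 2770, 1175, 1941 and 2349 CPM in the cochlea and 139 to 346 CPM in the vestibule (log2 fold change -3.12, SE 0.38, adjusted p = 0.000136, edgeR). Kctd12 (chr14:102976581-102982637), an auxiliary subunit of GABA-B receptors, stood at 3271, 1009, 1086 and 1577 CPM against 162, 96.3, 81.4 and 112 CPM (log2 fold change -4.00, SE 0.41, adjusted p = 5.05e-05, edgeR). The vestibular libraries lay below every cochlear library for all 3 genes.

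Of these 10 genes, 7 lay without overlap in the fibroblast/Ucma-profile cells as well (Kcnk2, Kctd12, Nkx6-1, Tnxb, Cdh6, C1ql1 and Hsd11b1), against 3.77% of all genes tested. This count is in part built in, since the 10 genes were taken for not overlapping over all chosen cells, which include these. Kcnk2 stood at 504 ± 60.3 CPM in the vestibular and 2047 ± 747 CPM in the cochlear fibroblast/Ucma-profile cells (131 cells), Kctd12 at 241 ± 145 against 2161 ± 1106 CPM. Nkx6-1, a homeobox transcription factor, stood at 0 in all 4 vestibular libraries of these cells and at 20.2 to 76.5 CPM in the cochlear ones. Over all chosen cells it was higher in the cochlea by a ratio of 32.2 (exact 95% counting interval 10.7 to 159, 3 vestibular UMIs). Fxyd2 overlapped there, at 0, 0, 591 and 146 CPM against 2679, 351, 1720 and 1810 CPM. The cochlear cells of other profiles held these transcripts too, Kcnk2 at 2094 ± 718 CPM, Kctd12 at 1649 ± 1017 CPM and Fxyd2 at 4802 ± 2246 CPM, so that they did not mark the fibroblast/Ucma-profile cells. Kcnk2 and Fxyd2 were counted there mainly in the 70 cells closest to the mean of all kept cells and the 49 closest to melanocytes. The first, 21.0% of the cochlear cells, had 2962 and 5935 CPM pooled, and the second 1580.3 and 7699 CPM. In the cells closest to melanocytes the marker Dct stood at 3592, 0 and 0 CPM in replicates 3, 4 and 5. Those of replicates 4 and 5 thus lacked this marker. Kcnk2 stood at 0 in cells closest to neurons and supporting cells, at 9.52 CPM in those closest to pendrin epithelial cells and at 105 CPM in those closest to pericytes. Within the cochlear fibroblast/Ucma-profile group, all 693 Kcnk2 and 467 Fxyd2 UMIs were in the fibroblast-profile cells. Cochlear cells were assigned with cochlear references, and their group was mixed differently (99 fibroblast and 32 Ucma profiles, against 128 and 120 in the vestibule).

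The remaining genes of this direction were Tnxb, which encodes tenascin-X (log2 fold change -4.80), Cdh6, a cadherin (-4.36), Gm14964, annotated as an antisense transcript (-4.36), C1ql1, a secreted C1q-like protein (-3.92), Ppp1r1b, an inhibitor of protein phosphatase 1 (-3.31), and Hsd11b1, the enzyme that regenerates active glucocorticoid (-3.29).

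**Figure D5:**
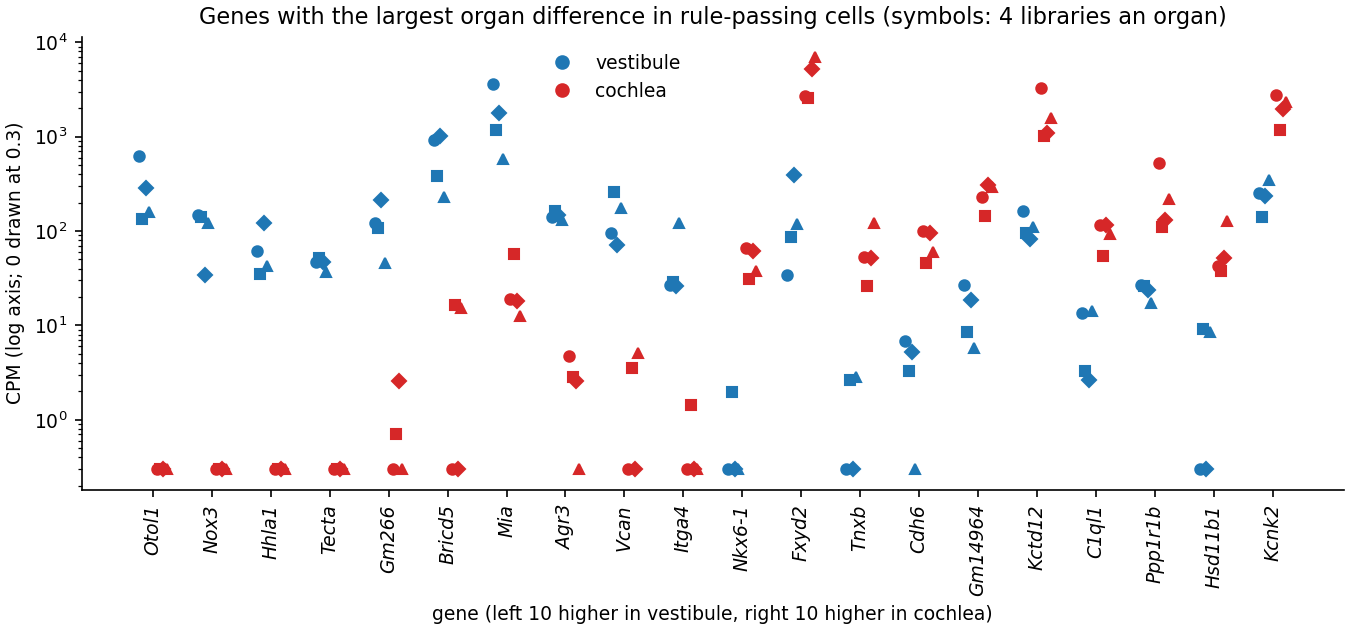
Levels (CPM, log axis, values of 0 drawn near the lower edge) of the 20 named genes in the chosen cells of the 4 vestibular libraries and in the cells of the 4 cochlear libraries that passed the same rule. Otol1, Nox3, Hhla1 and Tecta were at 0 in every cochlear library, and Kcnk2 stood at 139 to 346 CPM in the vestibule against 1175 to 2770 CPM in the cochlea.

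Organ differences can also be carried by free RNA, so macrophage-like cells of the same libraries were compared in the same way. Of 2926 genes tested in them, 39 passed (1.33%), 10 higher in the vestibule and 29 in the cochlea, and 3 of the 20 named genes had values. The organ effects of the chosen and the macrophage-like cells differed for 74 of 2616 genes tested (2.83%), in a separate joint fit of both classes with the library as a block, so that its differences are not those of the 2 single fits. Gm14964 differed there too (log2 fold change -5.58, adjusted p = 0.0049, edgeR), and its organ effect in the chosen cells did not differ detectably from that in macrophage-like cells (difference 1.18, SE 0.91, adjusted p = 0.508). Kctd12 was -1.03 in macrophage-like cells (adjusted p = 0.13) and its organ effect was the larger in the chosen cells (difference -2.88, SE 0.45, adjusted p = 0.00839). Macrophages can make Itga4 themselves, so its value there is no readout of free RNA. In the vestibule Kctd12 averaged 212 CPM in macrophage-like cells, 113 CPM in the chosen cells and 47.1 CPM in all other kept cells. Its value in macrophage-like cells is thus no clear readout of free RNA either. Ptgds was 5.30 higher on the log2 scale in vestibular than in cochlear macrophage-like cells (adjusted p = 0.0381), against 0.28 (adjusted p = 0.822) in the chosen cells, and the effects differed in the joint fit (difference -6.23, SE 1.09, adjusted p = 0.0112).

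Lists of genes that bear on fibrocytes are given next by the number of members that passed the test, to be read beside the 11.8% called of all genes tested. Of 22 mesenchymal transcription factors tested, 13 were higher in the cochlea and 2 in the vestibule (68.2% called), with a median log2 fold change of -1.34 against 0.00067 over all genes tested. Pou3f4, a factor of the otic mesenchyme whose loss causes deafness, stood at 118 ± 30.7 CPM in the vestibule and 457 ± 163 CPM in the cochlea (log2 fold change -1.98, adjusted p = 0.000669, edgeR). Nr2f2, Tbx18, Twist1, Sox9, Foxc1, Zic2, Nr2f1, Prrx1, Tbx1, Ebf2, Foxp2 and Osr1 were also higher in the cochlea, with log2 fold changes of -0.99 to -2.54. Tbx2 (2.32) and Sox6 (1.97) were higher in the vestibule.

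Among 18 genes of potassium and ion transport, 6 were called (33.3%), and the median log2 fold change of 0.14 lay near that of all genes. Atp1b1 and Atp1b3, beta subunits of the sodium pump (log2 fold changes -1.74 and -1.04), Car14, a carbonic anhydrase (-1.80), Slc12a7, a potassium-chloride cotransporter (-1.75), and Kcnk2 were higher in the cochlea and Slc26a4 (2.54) in the vestibule. Both connexins tested, Gjb2 (692 ± 191 against 2153 ± 1162 CPM, -1.67) and Gjb6 (377 ± 82.0 against 818 ± 383 CPM, -1.16), which form the gap junctions of fibrocytes and supporting cells, were higher in the cochlea. Of 7 insulin-like growth factor genes, 2 were called (28.6%): Igfbp5 (-2.23) and Igfbp2 (-1.28), both higher in the cochlea.

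Of 15 secreted proteins, 3 were called. Rbp4, the plasma retinol carrier (281 ± 228 against 1.34 ± 1.55 CPM, log2 fold change 7.00), and Sfrp1, a secreted Wnt antagonist (3.65), were higher in the vestibule and Clu, the chaperone clusterin (-1.25), in the cochlea. Of 7 collagens, 4 were called (57.1%). Col11a1 (1.99), Col9a2 (3.15) and Col27a1 (1.82) were higher in the vestibule and Col8a1 (-1.09) in the cochlea. Of 17 matrix glycoproteins and proteoglycans, 6 were called (35.3%). Vcan and Thbs1 (3.58) were higher in the vestibule and Timp3, a metalloproteinase inhibitor (-1.18), Emilin2 (-2.40), Efemp1 (-1.87) and Tnxb in the cochlea. Dcn, at 829 ± 439 against 348 ± 72.7 CPM, did not pass (1.25, adjusted p = 0.0545).

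Among 15 genes of the BMP and TGF beta pathway, 6 were called (40.0%). Id4 (1.62), Ltbp1 (2.64) and Tgfb2 (1.02) were higher in the vestibule and Id2 (-2.85), Id3 (-2.45) and Bmp4 (-1.49) in the cochlea. Of 12 Wnt genes, Sfrp1 and Sfrp4 (1.05) were higher in the vestibule (16.7% called). Of 8 retinoic acid genes, 3 were called (37.5%), of which Rbp4 and Aldh1a1, a retinaldehyde dehydrogenase (3.10), were higher in the vestibule and Rarb, a retinoic acid receptor (-1.83), in the cochlea. Of 14 immediate early and stress genes, 3 were called (21.4%). Junb (-2.67), Dusp1 (-2.31) and Fos (-2.15) were higher in the cochlea, the last with an adjusted p of 0.0691 with a replicate block. Of 4 chemokines and cytokines, Tnfrsf11b, the decoy receptor osteoprotegerin (-2.21), and Cx3cl1 (-1.45) were higher in the cochlea, and of 9 antigen presentation and complement genes H2-K1 (1.49) and H2-D1 (1.15) in the vestibule. Of 20 metallothionein and antioxidant genes, 2 were called (10.0%, below the share over all genes), Gpx1 (1.53) and Sod3 (1.48), both higher in the vestibule.

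No member passed in several lists, some of which had too few genes tested for a call to be likely at the share over all genes. None of 22 cytosolic ribosomal proteins (median 0.21), 13 mitochondrially encoded genes (median -0.32), 6 cell cycle and senescence genes (0.38), 3 hedgehog genes (1.05) or 2 prostaglandin genes (0.23) passed, and of 3 calcium channel genes Cacna1d (1.10) was higher in the vestibule (adjusted p = 0.0511 with a replicate block, edgeR). Some markers of other cell types also passed. Of 5 supporting cell markers tested, Otog (5.49), Otogl (2.85), Otoa (3.40) and Sox2 (2.38) were higher in the vestibule, as were all 4 erythroid markers, led by Hbb-bs (4.97), both B lineage markers tested (Igkc, 6.05, and Cd79a, 2.83), and Epcam (2.81) and Slc26a4 among 3 markers of pendrin epithelial cells, of which Cdh1 (-1.69) was higher in the cochlea. Hbb-bs stood at 40.6 to 42214 CPM in the vestibule and 7.68 to 2087 CPM in the cochlea, so its libraries overlapped, and its adjusted p was 0.135 with a replicate block. Hba-a1 and Hbb-bt also lost their call with the block (adjusted p = 0.082 and 0.0566), and Hba-a2 did not (adjusted p = 0.0161). Igkc stood at 0, 6208, 7.88 and 195 CPM in the vestibule and at 57.3, 39.7, 0 and 0 CPM in the cochlea, so its libraries overlapped too, and its vestibular mean of 1603 CPM was 67.5 CPM without replicate 3. C1qa of macrophages (2.64), S100a9 of granulocytes (4.30) and Sox10 of glia (1.71) were also higher in the vestibule and Pdgfrb of pericytes (-1.69) in the cochlea. None of the 4 fibroblast, 3 melanocyte, 3 barrier fibroblast or 1 endothelial markers tested passed. The part of these cells in the organ differences was not tested.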

How the data were processed

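The authors aligned reads to mm10 with Cell Ranger (6.1.2 in the submitters' processing notes while headers of the replicate 1 and 2 files name 5.0.1 and the rest 6.1.2) and deposited raw UMI counts per gene and cell barcode of 10 libraries. Total counts ran from 2738036 to 26974948 UMIs in the 8 libraries used. The members and gene lists were chosen with earlier results of these data known. Counts of the chosen cells were summed per library and tested with edgeR 4.0.16 in R 4.3.3 (TMM, filterByExpr, quasi-likelihood test, Benjamini-Hochberg adjustment over all genes tested, threshold 0.05). The chosen cells were not tested against other cells, since expression chose them. Named genes were the 10 in each direction with the largest log2 fold change among calls without overlap between organs and at or above the other kept cells, and the 15 with the largest ratio to the other kept cells at 50 CPM or more in the chosen cells, rule genes left out. Profiles came from cells with at least 3 markers of 1 type (Ucma cells: 2 UMIs of Ucma), with 20000 UMIs of the mean profile added, and needed 20 cells and a held-out recovery of 50%. Cells were assigned in Python 3.11.15 with numpy 2.4.6 by multinomial likelihood. Doublets were removed by no caller, and an alternative left out cells with 3 markers of another type. Same-numbered vestibular and cochlear libraries deviated together (correlations of 0.120, 0.170, 0.119 and 0.146 for replicates 1, 3, 4 and 5), so the numbers were treated as pairing libraries in an alternative with a replicate block. Nothing in the labels says what a number shares. The labels give the libraries as biological replicates. Steps were tested on simulated data. Some genes that these rules take are not reported here. Gene positions are from GENCODE M21 (GRCm38, mm10).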

Additional observations from a re-analysis of the deposited data

Results flagged for a closer look

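Of 76 groups of 4 libraries, 7 held a library far from the others for its gene, where chance alone flags about 1 in 20 groups. In the vestibule, replicate 5 had 123 CPM of Itga4 against 26.3 to 29.0 CPM in the others, replicate 1 had 169 CPM of Gsta1 against 5.72 to 30.4 CPM and 392 CPM of Cldn11 against 52.5 to 57.2 CPM, and replicate 3 had 1.98 CPM of Nkx6-1 where the others had 0. In the cochlea, replicate 3 had 57.5 CPM of Mia against 12.6 to 19.1 CPM and 1.42 CPM of Itga4 where the others had 0, and replicate 5 had 126 CPM of Hsd11b1 against 37.6 to 51.2 CPM. The values of Nkx6-1 and Itga4 near 1 CPM rest on 3 and 2 UMIs.

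The organ effect of 2 of the 3 named genes with a value, and of Ptgds, differed between the chosen and the macrophage-like cells in edgeR's interaction test, chosen after seeing the data, which 74 of 2616 genes passed (2.83%). The differences come from a joint fit of both classes with the library as a block, and the effects in brackets from a fit of each class alone, so that they need not add up. Itga4 differed by 4.75 on the log2 scale (5.60 in the chosen and 0.56 in the macrophage-like cells, adjusted p = 0.00839), Kctd12 by -2.88 (-4.00 and -1.03, adjusted p = 0.00839), and Ptgds by -6.23 (0.28 and 5.30, adjusted p = 0.0112). Macrophages can make Itga4 themselves, so its difference says nothing about free RNA. Kctd12 was higher in vestibular macrophage-like cells (212 CPM) than in the chosen cells (113 CPM), so its difference is no clear readout either.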

How the results depend on the processing

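The 20 named genes kept their direction and their call in the 328 values that other settings gave. This is in part built in, since they were taken as the largest calls without overlap in the same data. Several settings tested fewer of them: 6 with thinned cells, 8 under the rule on Coch and Otos, 11 without high-UMI cells, 12 each without cells with other markers and with the mitochondrial limit of 10%, and 19 without replicate 3 of both organs. The count of calls moved more. Against 647 calls (284 higher in the vestibule and 363 in the cochlea), there were 1750 (1065 and 685) with no filter on low counts, 269 (93 and 176) with a rule of at least 2 UMIs each of Coch and Otos, 345 (153 and 192) without cells with markers of another type, 283 (116 and 167) without high-UMI cells, 395 (155 and 240) with a mitochondrial limit of 10% and 127 (36 and 91) with cells thinned to 1000 UMIs. Several of these leave fewer UMIs and test fewer genes. Leaving out 1 library gave 426 to 898 calls, 219 to 434 higher in the vestibule and 207 to 481 in the cochlea. The lowest count, 426, came without replicate 3 of the vestibule, which holds 429 of the 703 cells, and there more genes were higher in the vestibule (219) than in the cochlea (207). The same turn was seen without replicate 3 of both organs, a setting chosen after seeing the data (466 calls, 243 and 223), and without replicate 3 of the cochlea (838 calls, 434 and 404). DESeq2 1.42.0 with its size factors gave 664 calls, 598 of them shared. With a replicate block, which uses the pairing of libraries by number, there were 802 calls (355 and 447). The block changed the call of none of the 20 named genes, and left 3 of the 4 erythroid markers uncalled (Hbb-bs, adjusted p = 0.135). Fos and Cacna1d also lost their call under it (adjusted p = 0.0691 and 0.0511). Replicate 2 in place of replicate 1 gave 667 calls and their mean 662.

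The number of chosen cells was 63 with all 3 rule genes, 341 with the rule on Coch and Otos and 465 with a mitochondrial limit of 10%. The organ comparison could not be fitted with all 3 rule genes, since the cochlea held 2 such cells. Mean profiles weighted by 2000 or 100000 UMIs, also chosen after seeing the data, put 249 and 247 cells closest to a fibroblast or Ucma profile, against 248.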
